A study of Mus musculus with 9 samples.

Results

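The cells described here are the 116 cells that the depositors labelled aEC, brain arterial endothelial cells, among 1235 cells with a label (9.39%, exact binomial 95% interval 7.82 to 11.2). They were chosen by that label and by no measured value. The sources used here do not say how the depositors made the labels. If the labels came from these same reads, a difference between labels is not independent of them, so differences between labels are given as descriptions. Vascular fragments were taken from the brains of adult mice and digested to single cells, which went into 384-well plates and were read by Smart-seq2, a full-length method without molecular identifiers. The other 8 labels were capilEC (787 cells), vEC (45), CP-EC (17), PC (54), aSMC (41), vSMC (29), FB (9) and MG (137), written as deposited. The labels name no genotype, strain, sex, exact age, number of animals or treatment. Each label is 1 sample, so there is no replicate of a label and no p-value. The 4 plates, named in the cell names, give repeated values within the study, but whether plates hold different animals is not known.

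Endothelial cells line every vessel, and in the brain they carry the blood-brain barrier: tight junctions close the gaps between cells, and transporters move glucose, amino acids and other solutes across them. Along the vascular tree they change from arterial to capillary to venous. Notch signalling, SOXF transcription factors and shear stress are known to go with arterial identity, NR2F2 with venous identity, and most nutrient exchange takes place in capillaries and venules.

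The 116 aEC cells held 31307636 reads, from 100185 to 843803 in a cell (median 235862). The median was 192941 reads in capilEC and 261300 in vEC. The plates contributed 7, 26, 41 and 42 aEC cells (2.17%, 9.96%, 12.5% and 13% of each plate's cells), in the order s169s, s480s, s482s and s483s. The plate with 7 aEC cells was also the shallowest, with a median of 159000 reads per cell against 223295 to 238701 in the others. Reads of all cells with 1 label were added up and expressed as counts per 1000000 reads of that label (CPM). For aEC, 3 reads equal 0.0958 CPM. Exact Poisson intervals and shares cover counting error only. CPM is not divided by transcript length, so levels are compared between labels and not between genes. In summed counts, fewer cells that express a gene and less RNA of it per cell cannot be told apart.

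The endothelial identity of the aEC cells was checked against marker lists. The summed pan-endothelial list of 15 genes stood at 20792 CPM in aEC, against 22161 in capilEC and 15407 in vEC, and at 1385 in MG. Every aEC cell held at least 7179 CPM of it. Lists of other cell types were low: the 13 mural genes summed to 372 CPM in aEC against 24035 in PC, the 11 smooth muscle genes to 348 against 20891 in aSMC, the 12 microglial genes to 348 against 39309 in MG, and the 7 fibroblast genes to 10.5 against 11564 in FB. Defining markers of these types were near 0 in aEC: the pericyte channel gene Kcnj8 stood at 1.09 CPM, the smooth muscle gene Cnn1 at 0.383 and the microglial integrin Itgam at 0.479. Low reads of strongly expressed genes of other cell types were still widespread. The microglial receptor Cx3cr1 had at least 1 read in 76.7% of aEC cells but a level of only 26.2 CPM there, against 5539 CPM in MG. Since single reads of such genes occur in most wells, a threshold of 100 CPM in a cell, chosen after the data were seen, is used beside the share of cells with a read. Of the aEC cells, 5 exceeded 10% of the typical mural or microglial list level (3 mural, 2 microglial). With all such cells of every label left out, the mural list stood at 170 CPM in aEC and 144 in capilEC, the smooth muscle list at 295 and 249, and the microglial list at 217 and 275. This left 111 aEC, 772 capilEC, 14 PC, 15 vSMC and 1 FB cells, so the filtered mural and FB levels rest on few cells.

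All 5 label markers were higher in aEC than in capilEC. Bmx, a TEC-family tyrosine kinase, reached 248 CPM in aEC (Poisson interval 242 to 253), 15.0 in capilEC, 8.01 in vEC and 0.906 in CP-EC. It was 53.4 in vSMC, 30.9 in FB and at most 5.79 in PC, aSMC and MG. By plate, aEC had 218, 213, 333 and 184 CPM of Bmx, and capilEC had 29.7, 5.42, 19.0 and 8.01, so that the plates did not overlap. Gkn3, a secreted gastrokine, stood at 535 CPM in aEC against 43.0 in capilEC, 18.4 in vEC and 176 in vSMC. Without cells that carry markers of another class, the 15 vSMC cells left had 4.37 CPM of Gkn3 and 1.59 of Stmn2, and capilEC was the next label for both. In aEC it stood at 626, 552 and 540 CPM on plates s169s, s482s and s483s and was lowest on s480s, and all 4 lay above the highest capilEC plate at 121.

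Stmn2 encodes stathmin-2, a microtubule regulator best known from neurons. It reached 499 CPM in aEC against 39.0 in capilEC, 24.9 in vEC and 82.9 in vSMC, with 343 to 640 CPM in the 4 plates against 14.2 to 99.7 in capilEC. Most other neuronal genes did not accompany it in level: 10 of 12 genes of a neuronal list were under 5 CPM in aEC, Tubb3 among them at 0 reads. Uchl1 was higher in aEC too, at 64.4 CPM against 12.2 in capilEC and 6.73 in vEC, and reached 100 CPM in 14 aEC cells. On plate s169s Uchl1 was lower in aEC (1.98 CPM) than in capilEC (10.4). Snap25 stood at 8.24 CPM in aEC. Alpl, tissue-nonspecific alkaline phosphatase, was graded along the endothelial labels, at 1414 CPM in aEC, against 271 in capilEC and 9.64 in vEC. Mgp, matrix Gla protein, an inhibitor of calcification, did not single out aEC. It stood at 430 CPM in aEC, against 21.2 in capilEC and 196 in vEC, but at 640 in PC, 601 in aSMC and 916 in vSMC, so that aEC ranked 4 among the 9 labels. FB went from 236 to 1145 CPM of Mgp without cells with markers of another class, but only 1 of 9 FB cells was left. That value describes 1 cell and not the label. Without the 5 cells with markers of another class, the aEC levels were 236 CPM for Bmx and 412 for Mgp. With such cells left out of every label, Bmx was 0.795 CPM in the 15 vSMC cells left and 0 in the 1 FB cell left.

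**Figure D1:**
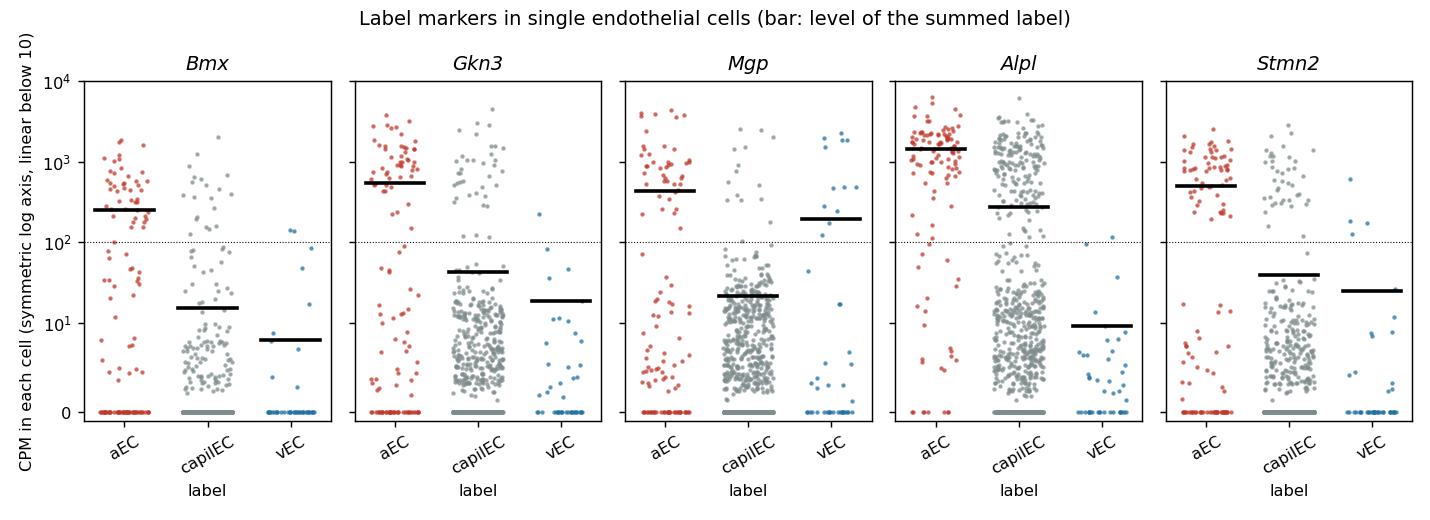
CPM of Bmx, Gkn3, Mgp, Alpl and Stmn2 in each aEC, capilEC and vEC cell (points; symmetric log axis), with the level of the summed label as a bar and 100 CPM as a dotted line. Few points lie near the line, and 90 aEC cells lie above it for Alpl but 43 for Mgp.

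Within the label, each marker was strong in some cells and near 0 in others. At or above 100 CPM were 90 of 116 aEC cells for Alpl, 58 for Stmn2, 49 for Gkn3, 44 for Bmx and 43 for Mgp. Of 580 marker values in aEC cells, 9 lay between 50 and 100 CPM and 12 between 100 and 200. In capilEC the counts at that level were 173 of 787 cells for Alpl, 40 for Stmn2, 37 for Gkn3, 20 for Bmx and 15 for Mgp. In vEC, Mgp reached it in 12 of 45 cells and the other 4 markers in 1 to 4 cells. After thinning every cell to 100000 reads, a read of Bmx was found in 53.4% of aEC cells (44.0 to 62.8), against 11.2% in capilEC and 10.9% in MG, which should lack it. For Gkn3 the shares were 57.8% in aEC, 29.9% in capilEC and 20.4% in MG, and without thinning the aEC share was 69.8%.

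The markers often occurred together. In aEC, 58 of 116 cells (50%) had 3 or more of the 5 markers at 100 CPM, 13 had all 5, and 16 had none. In capilEC, 19 of 787 cells (2.41%) had 3 or more and 571 had none, and in vEC 0 of 45 had 3 or more. The number of markers also moved with depth: the median was 153274 reads in the 16 aEC cells without a marker, 231441 in the 42 with 1 or 2, and 287920 in the 58 with 3 to 5. The part of depth in this was not tested. These tiers are ranges of a count and not cell types.

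The other genes differed between the tiers as well. The 19 arterial list genes that are not label markers summed to a median of 4949 CPM in aEC cells with 3 to 5 markers, 2781 with 1 or 2, and 1098 with none. In the same order the capillary list had medians of 5265, 8547 and 7087 CPM, against 12926 in capilEC cells with 0 to 2 markers. The 19 capilEC cells with 3 to 5 markers had a median of 2950 CPM for the arterial genes and 4174 for the capillary list, while the other capilEC cells had a median of 1572 CPM for the arterial genes. The ranges of these sums overlapped between the aEC tiers.

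Promoter sequences are shown for the genes that set aEC apart from all other labels and for Gkn3, so that the letters upstream of these genes can be read beside the levels. They are from RefSeq (GRCm38.p6) and give the 250 bases before the annotated start, on the sense strand. Of 7 genes looked for, 4 matched, and no sequence is printed for Mgp, Stmn2 and Cdk19. Capitals mark matches, on either strand, to TGGGAA (the core read by RBPJ, the DNA-binding partner of Notch), AACAAT (SOX), ACAAAG (the HMG-box core shared by SOX and TCF/LEF), CAGGAA (ETS) and CACCC (KLF).
Bmx, chrX:164258194-164258443, minus strand: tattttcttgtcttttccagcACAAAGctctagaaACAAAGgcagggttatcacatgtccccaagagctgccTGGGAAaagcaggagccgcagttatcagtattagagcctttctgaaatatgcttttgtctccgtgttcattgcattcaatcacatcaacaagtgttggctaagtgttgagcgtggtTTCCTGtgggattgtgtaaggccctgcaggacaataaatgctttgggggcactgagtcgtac
Gkn3, chr6:87388936-87389185, minus strand: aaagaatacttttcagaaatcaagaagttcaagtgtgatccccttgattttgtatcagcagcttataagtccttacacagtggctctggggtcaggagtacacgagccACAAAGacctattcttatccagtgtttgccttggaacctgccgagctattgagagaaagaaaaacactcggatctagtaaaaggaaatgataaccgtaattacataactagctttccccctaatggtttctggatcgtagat
Alpl, distal start, chr4:137796385-137796634, minus strand: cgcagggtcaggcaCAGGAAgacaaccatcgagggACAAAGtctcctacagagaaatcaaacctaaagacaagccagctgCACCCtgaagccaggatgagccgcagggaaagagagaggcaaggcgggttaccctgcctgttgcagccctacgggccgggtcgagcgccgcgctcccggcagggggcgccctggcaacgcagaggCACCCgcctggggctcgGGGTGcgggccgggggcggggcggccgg
Alpl, proximal start, chr4:137766476-137766725, minus strand: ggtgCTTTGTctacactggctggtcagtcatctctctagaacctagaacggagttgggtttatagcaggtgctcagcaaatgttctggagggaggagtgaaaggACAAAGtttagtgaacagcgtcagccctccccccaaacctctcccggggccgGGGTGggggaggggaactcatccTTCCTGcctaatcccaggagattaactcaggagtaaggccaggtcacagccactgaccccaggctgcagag
Eps8l2, chr7:141338752-141339001, plus strand: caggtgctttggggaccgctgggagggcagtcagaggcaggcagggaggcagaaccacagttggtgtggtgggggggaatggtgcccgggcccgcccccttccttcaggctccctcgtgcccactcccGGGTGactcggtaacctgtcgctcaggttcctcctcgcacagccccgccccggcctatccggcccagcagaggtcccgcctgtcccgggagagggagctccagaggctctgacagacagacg
ACAAAG occurred in 4 of these 5 windows, including both Alpl starts, and in 16.5% of all 32851 promoter windows of this length. TGGGAA occurred in the Bmx window only, at 178 to 173 bases before the start, and in 21.6% of all windows. CAGGAA was in 3 of 5 windows (25.7% of all), CACCC in 3 (52.0%) and AACAAT in 0 (9.42%). Matches of different motifs did not overlap. A match is a description of letters and not a binding site, 5 windows of 4 genes are few, and the reads are counted per gene and cannot be assigned to either Alpl start.

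A size rule was used to count differences between labels: at least 50 CPM in the higher label, a read in at least 50% of its cells, and at least a 4-fold difference (2 units of log2(CPM + 5)). Genes over 5 CPM in either label were counted as measured. Against capilEC, 17 of 11520 measured genes were higher in aEC (0.148%) and 11 were lower (0.0955%). Against vEC, 61 of 11960 were higher (0.51%) and 54 lower (0.452%). Of the 17 and 11 genes, 15 and 11 pointed the same way in all 4 plates. The count against vEC rests on 45 vEC cells, and whether it differs from the count against capilEC was not tested.

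Higher in aEC than in both capilEC and vEC were 9 of 12281 genes (0.0733%): Bmx, Stmn2, Gkn3, Egfl8, Cdk19, Alpl, Ccnd2, Eps8l2 and Gja4. Of these, Stmn2, Alpl, Cdk19, Bmx and Eps8l2 met the rule against each of the other 8 labels, the only 5 of 15494 genes to do so (0.0323%). Cdk19, a kinase of the Mediator complex, stood at 456 CPM in aEC and 57.1 in capilEC, and at most 88.0 in any other label. It was at or above 100 CPM in 61 aEC cells (52.6%) and 72 capilEC cells (9.15%). Eps8l2, an actin regulator of the EPS8 family, stood at 409 CPM in aEC, against 92.3 in capilEC and 54.8 in vEC, with a plate range of 1.49 to 3.08 log2 units over capilEC. Egfl8, an EGF-like domain protein, was 315 CPM in aEC, against 33.0 in capilEC and 7.79 in vEC. In vSMC Egfl8 was 109 CPM, or 20.3 in the 15 cells left without markers of another class. Ccnd2, cyclin D2, was 263, 53.9 and 1.20 CPM in the 3 labels, and higher still in aSMC (502) and vSMC (676).

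Lower in aEC than in both were 5 genes (0.0407%): Slc38a5, Rnase4, Cpe, Ndnf and Tmsb10. Slc38a5, a glutamine and neutral amino acid transporter, stood at 47.4 CPM in aEC, against 764 in capilEC and 2026 in vEC. Its aEC plate values were 73.3, 5.30, 36.4 and 84.2 CPM, against 691 to 812 in capilEC. It was at or above 100 CPM in 8 aEC cells (6.90%), 394 capilEC cells (50.1%) and 42 of 45 vEC cells. Rnase4, a secreted ribonuclease, stood at 19.9 CPM in aEC, against 251 in capilEC and 626 in vEC, and 1 cell held 42.6% of the aEC reads. Cpe, carboxypeptidase E, was 34.2, 267 and 493 CPM in the same order, and Tmsb10, an actin-binding thymosin, 71.3, 380 and 570. The order in these 4 genes ran from aEC up to vEC, while Ndnf, a secreted neurovascular factor, was highest in capilEC (30.4, 330 and 225 CPM). No gene was lower in aEC than in capilEC, vEC and CP-EC together (0 of 12776, 0.0%). Without plate s483s, which holds 10 of the 17 CP-EC cells, the count was 4 genes.

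**Figure D2:**
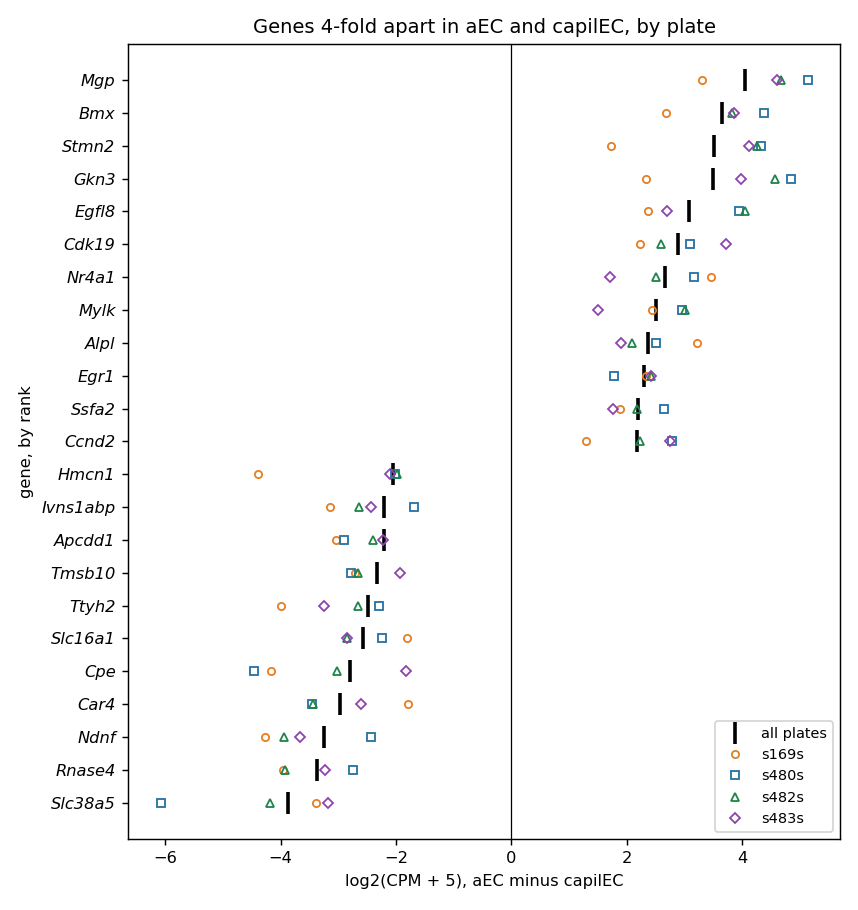
Difference of log2(CPM + 5), aEC minus capilEC, for 12 genes higher and 11 genes lower in aEC by the size rule, for all plates (bar) and within each of the 4 plates (symbols). Genes were drawn only if all 4 plates shared the direction, so no symbol can lie on the other side of 0. Gja4 met the rule but was left out on that ground. All plate values of Bmx lie between 2.68 and 4.39 and all of Slc38a5 between -6.08 and -3.17.

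The arterial list, 24 genes known from arterial endothelium and including the 5 label markers, was mostly highest in aEC. Like the other lists it was chosen with earlier results of these data known, so its values describe the label and do not test it. Its median difference was 2.36 log2 units over capilEC and 2.91 over vEC, where the medians of all measured genes were 0.00 and -0.07. Of 23 measured genes, 4 were over 5 CPM in aEC but not in capilEC, and 7 in aEC but not in vEC, which sets their direction. Among those over 5 CPM in both labels, 17 of 19 were above 0 against capilEC and 16 of 16 against vEC. Of all measured genes, 50.3% and 47% were above 0. The size rule was met by 7 and 10 of the 23 genes, and by 0 in the other direction. Without the 5 label markers, which belong to the list, 18 genes had medians of 1.67 and 2.41 log2 units, and 2 (Egfl8 and Gja4) and 6 met the rule. In 13 of the 23 genes the level went down in the order aEC, capilEC, vEC. Some of the list stood low: the ephrin ligand Efnb2, a textbook arterial gene, stood at only 12.4 CPM in aEC and 20.5 in capilEC. The chemokine receptor Cxcr4 stood at 0.287 CPM in aEC, and the connexin Gja5 at 9.81.

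**Figure D3:**
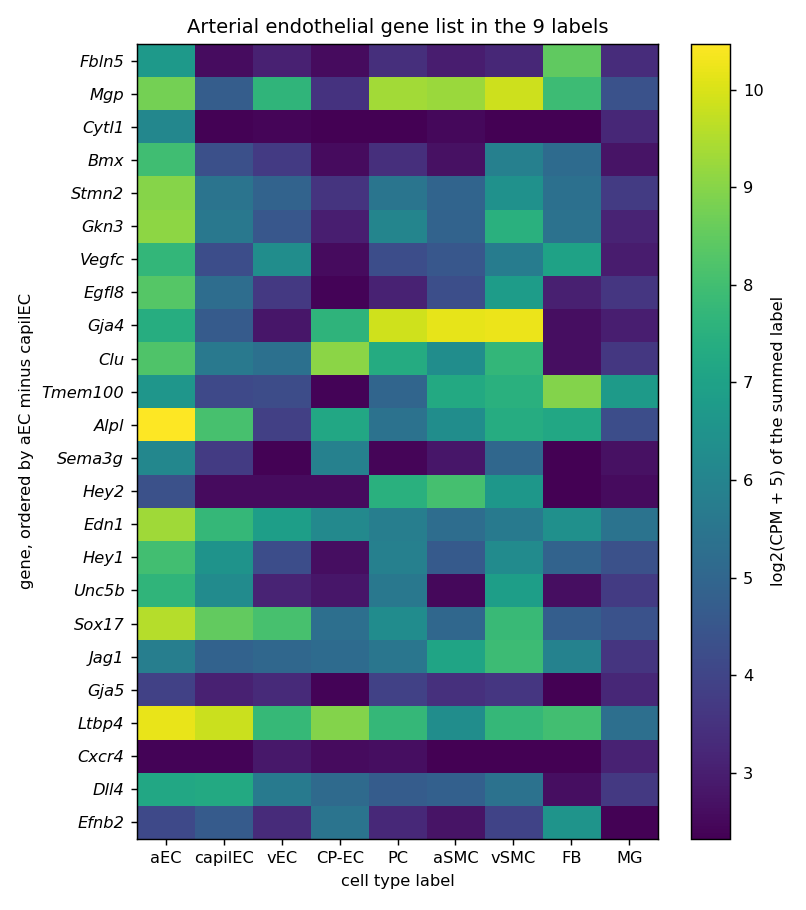
Level of the 24 arterial list genes, as log2(CPM + 5) of the summed label, in the 9 labels, ordered by the difference between aEC and capilEC. Alpl, Bmx and Stmn2 are brightest in aEC, Mgp and Gja4 are brighter in the mural labels PC, aSMC and vSMC, and Cxcr4 is dark in all labels.

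Notch signalling is a defining pathway of arterial endothelium, and its parts were described by role. Among the 4 ligands, Dll4 was nearly level between aEC and capilEC in the sums (141 and 149 CPM) and lower in vEC (45.8). By plate Dll4 went both ways, at 353, 126, 88.9 and 178 CPM in aEC against 97.5, 184, 146 and 162 in capilEC. Jag2 was graded, at 146, 76.0 and 14.0 CPM, and Jag1 stood at 51.2, 24.8 and 27.6. On plate s169s Jag1 was lower in aEC (23.1 CPM) than in capilEC (54.2). Dll1 was low throughout (15.6, 2.82 and 43.1 CPM). No ligand met the size rule against either label. The receptors Notch1 (617, 549 and 220 CPM) and Notch4 (120, 116 and 19.1 CPM) were nearly level between aEC and capilEC in the sums and lower in vEC. On plate s169s Notch1 was higher in aEC than in capilEC (274 against 65.2 CPM) and Notch4 lower (3.96 against 66.7). Notch3, the mural receptor, was 6.39 CPM in aEC against 1088 in vSMC.

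Of the Notch targets, Hey1 stood at 251 CPM in aEC, against 85.5 in capilEC and 14.2 in vEC. Its plate values in aEC were 694, 278, 337 and 78.9 CPM, each above the capilEC value of its own plate (86.9, 124, 89.8 and 50.8). The highest and lowest aEC plates lay further apart than the summed labels. Hes1 was nearly level in the sums (176, 198 and 166 CPM). By plate Hes1 went both ways, at 104, 238, 209 and 109 CPM in aEC against 318, 127, 196 and 165 in capilEC. Hey2 was 15.4 CPM in aEC and below 1 in the other 2, with most reads on plate s482s. Without it the difference from capilEC was -0.04 log2 units, against 1.80 with all plates. Rbpj, the transcriptional effector of the pathway, was lower in aEC (12.8 CPM) than in capilEC (40.4) and vEC (52.0).

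Of 16 arterial and pan-endothelial transcription factors, 14 were measured, 9 were above 0 against capilEC and 11 against vEC, with medians of 0.12 and 0.72 log2 units. The shares over all measured genes were 50.3% and 47%. The size rule was met by 0 against capilEC and by Mecom, a zinc-finger factor, against vEC (178 CPM against 40.5). Sox17, the SOXF factor most tied to arteries, stood at 750 CPM in aEC, against 361 in capilEC and 271 in vEC. On plate s169s, with 7 aEC cells, it was 131 CPM in aEC and 220 in capilEC; on the other 3 plates it was 688 to 959 against 370 to 464. Its SOXF relatives Sox18 (1179, 1005 and 794 CPM) and Sox7 (369, 330 and 266 CPM) differed by less. Among 9 factors of capillary and venous endothelium, Nr2f2, the venous nuclear receptor, stood at 7.83 CPM in aEC, against 17.5 in capilEC and 130 in vEC. A single cell held 88.6% of the aEC reads of Nr2f2. Lef1, a nuclear effector of Wnt signalling in the barrier, was 265, 454 and 300 CPM.

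Among 19 guidance genes, Unc5b, a netrin receptor, and Sema3g, a secreted semaphorin, carried the arterial pattern. Unc5b stood at 197 CPM in aEC, against 71.8 in capilEC and 3.67 in vEC. Sema3g was 63.6, 8.49 and 0.142 CPM, and was found at 100 CPM or more in 18 aEC cells and 0 vEC cells. The list as a whole did not lean to aEC: 7 of 17 measured genes were above 0 against capilEC, beside 50.3% of all measured genes. Nrp1, a co-receptor of VEGF and semaphorins, was lower in aEC (165 CPM) than in capilEC (361), and Nrp2 was 14.6 CPM in aEC against 263 in vEC. On plate s169s Nrp1 was higher in aEC (445 CPM) than in capilEC (223). Among the connexins, which form gap junctions, Gja4 was 162 CPM in aEC, against 20.1 in capilEC and 1.98 in vEC. It was 947 to 1208 CPM in PC, aSMC and vSMC and 190 in CP-EC. On plate s169s the 7 aEC cells had 1.32 CPM of Gja4 against 20.4 in capilEC; on the other plates aEC had 128 to 211 CPM and capilEC 15.3 to 26.1. Without the 5 cells with markers of another class it was 170 CPM in aEC.

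Elastic fibres give arteries their recoil. Of a 19-gene elastic fibre list, 12 genes were measured against capilEC, and 6 of these were over 5 CPM in aEC alone, so that their direction was set by that minimum. The other 6, over 5 CPM in both labels, were Eln, Fbln2, Ltbp4, Efemp2, Mgp and Bgn. The median of the 12 was 1.75 log2 units with all cells and went from -0.34 to 2.22 between plates. The size rule was met by 1 gene, Mgp. Fbln2, a fibulin of the matrix, stood at 265 CPM in aEC, against 14.0 in capilEC and 17.7 in vEC, with 304, 334, 232 and 247 CPM in the 4 plates against at most 24.8 in capilEC. It was at or above 100 CPM in 36 aEC cells. Fbln5, which assembles elastin, was 101 CPM in aEC, against 0.988 in capilEC and 3.40 in vEC, and Eln, elastin itself, was 89.6, 5.09 and 42.8. These 2 genes rested on few cells: 9 aEC cells reached 100 CPM of Fbln5 and 13 of Eln, and the top cell held 35.4% and 28.7% of the reads. On plate s169s no aEC cell had a read of Fbln5. The latent TGF-beta binding protein Ltbp4 was high in aEC (1169 CPM) and capilEC (899) and lower in vEC (213). Bgn, biglycan, was 67.5 CPM in aEC with all cells and 39.2 without the 5 cells with markers of another class, against 13.1 in capilEC.

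Cells with Fbln5, Eln or Cytl1, a secreted cytokine-like protein, more often carried other genes of the arterial or elastic fibre lists. Cytl1 is not in the elastic fibre list, while Mgp and Fbln2 are. Fbln5, Eln or Cytl1 reached 100 CPM in 18 aEC cells (1 of 7, 4 of 26, 7 of 41 and 6 of 42 by plate). On plate s169s it was Cytl1 alone (1570 CPM). Of the other 98 cells 2 lay between 50 and 100 CPM, and none of the 18 lay between 100 and 200. Mgp was at 100 CPM or more in 16 of the 18 (88.9%) and in 27 of the other 98 (27.6%). The shares were 77.8% and 35.7% for Gkn3, 72.2% and 31.6% for Bmx, 61.1% and 25.5% for Fbln2, and 50% and 16.3% for Gja4. For Alpl they were close, at 83.3% and 76.5%. The capillary gene Car4 reached that level in 0 of the 18 and 28 of the 98 cells, and Slc16a1 in 2 and 34. The smooth muscle actin gene Acta2 reached it in 1 of the 18 and 7 of the 98. Median depth was 227136 reads in the 18 cells and 236908 in the others. These cells were grouped after their values were seen, so the shares are a description and cells are not replicates.

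**Figure D4:**
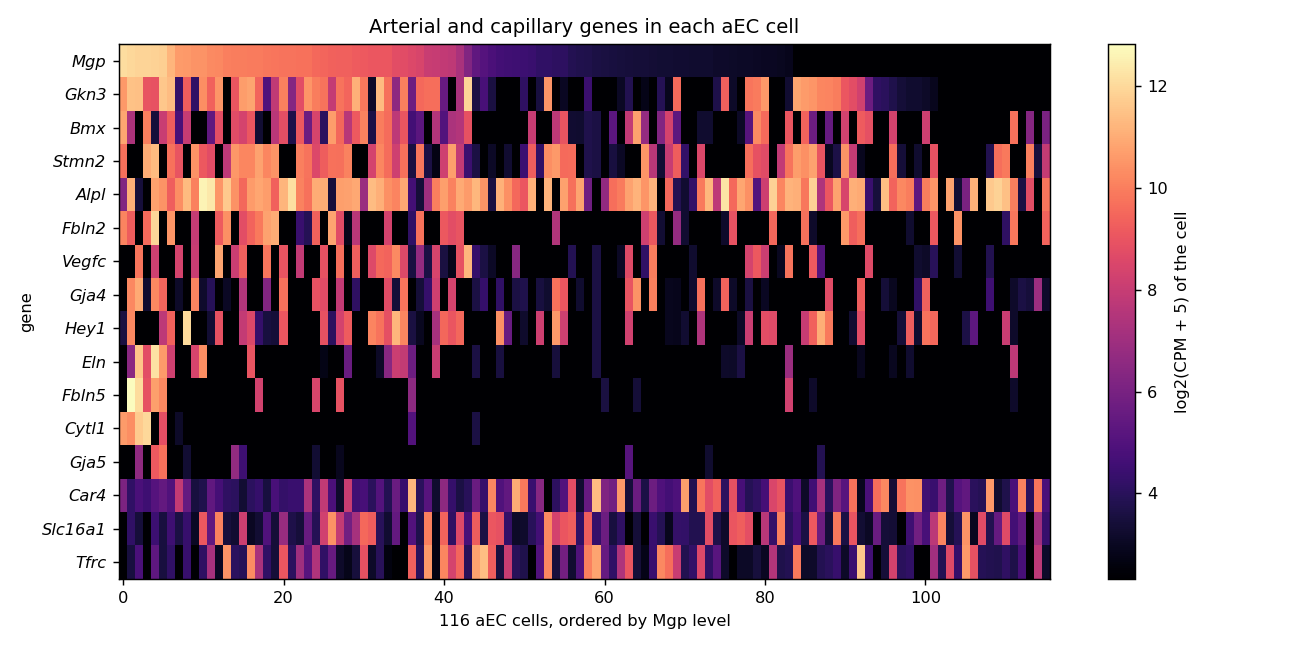
Level of 16 arterial and capillary genes, as log2(CPM + 5), in each of the 116 aEC cells, ordered from the highest to the lowest Mgp level. The cells with Eln, Fbln5 and Cytl1 gather at the left, where Mgp is high and Car4 is dark, while Alpl is bright in most cells across the row.

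Basement membrane genes did not follow the same direction. Of 11 measured genes, 3 were above 0 against capilEC and 9 against vEC, beside 50.3% and 47% of all measured genes. Fn1, fibronectin, was 631 CPM in aEC, against 1045 in capilEC and 553 in vEC. On plate s169s Fn1 was higher in aEC (1192 CPM) than in capilEC (1091). The type IV collagens Col4a1 (285, 285 and 195 CPM) and Col4a2 (287, 314 and 103 CPM) were nearly level between aEC and capilEC in the sums. On plate s169s Col4a1 was higher in aEC (353 against 226 CPM) and Col4a2 lower (9.24 against 164). Nid1, nidogen, was 17.2 CPM in aEC, against 83.9 in capilEC and 0.921 in vEC.

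Arterial endothelium sets vascular tone, and the genes for that were divided. Edn1, the vasoconstrictor endothelin-1, stood at 623 CPM in aEC, against 212 in capilEC and 114 in vEC, and met the size rule against vEC. Plate s169s had the opposite order for Edn1 against capilEC, with 66.7 CPM in 7 aEC cells and 274 in capilEC, while the other plates had 569 to 867 against 162 to 240. The nitric oxide synthase Nos3 was 550, 568 and 232 CPM in the 3 labels. Ace, angiotensin-converting enzyme, was 53.8 CPM in aEC and 53.9 in vEC, against 8.80 in capilEC. Among receptors and channels, Trpv4, a mechanosensitive calcium channel, was 167 CPM in aEC, against 20.2 in capilEC and 30.7 in vEC, and was at or above 100 CPM in 22 aEC cells. No aEC cell of plate s169s had a read of it. The purinergic receptors P2ry1 (39.1, 7.99 and 30.6 CPM) and P2ry2 (37.4, 7.01 and 0.142 CPM) were higher in aEC than in capilEC or vEC in the sums. Neither had a read in the aEC cells of plate s169s, where P2ry1 stood at 10.3 CPM in capilEC and 12.1 in vEC. Against vEC, P2ry1 was also lower in aEC on s480s (41.8 against 96.6 CPM), nearly level on s482s and higher on s483s (30.98 against 0.191). Kcnn4, an endothelial potassium channel, was 9.58 CPM in aEC, 96.3% of it from 1 cell.

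A flow list of 13 genes was close in aEC and capilEC, with a median difference of -0.03 log2 units and 0 genes meeting the size rule. The list holds sensing and junction genes such as Piezo1 and Cdh5 beside flow-responsive factors, so its median does not describe those factors alone. Of the 13 genes, 6 were above 0, against 50.3% of all measured genes. Klf2, a flow-responsive factor, was 649 CPM in aEC and 536 in vEC, with 1.35 times the capilEC level in aEC. Its relative Klf4 was 187, 89.6 and 83.6 CPM. Heg1, a partner of the CCM complex, was 1639, 994 and 459 CPM.

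Among growth factor ligands, Vegfc, which drives lymphatic and vascular growth, stood at 207 CPM in aEC, against 13.9 in capilEC and 74.2 in vEC. Its aEC plate values were 2.64, 221, 230 and 200 CPM, so the 7 cells of plate s169s lacked most of it. Tgfb2 was 552 CPM in aEC, against 160 in capilEC and 91.1 in vEC, with plate differences of 1.5 to 2.44 log2 units over capilEC. Pdgfa, a ligand for mesenchymal cells, was 78.5, 11.5 and 36.0 CPM, whereas Pdgfb, which recruits pericytes, was nearly level in the sums (179, 199 and 118 CPM). By plate Pdgfb went both ways, at 19.1, 329, 114 and 171 CPM in aEC against 234, 204, 228 and 144 in capilEC. Cxcl12 was high in aEC and capilEC (3390 and 3621 CPM) and 9.15-fold lower in vEC than in aEC. Edn3, a second endothelin, was 469, 213 and 91.3 CPM, but on plate s169s 134 CPM in aEC against 152 in capilEC. Of the receptors, Kdr, the main VEGF receptor, was lower in aEC (321 CPM) than in capilEC (668) and vEC (556), as was Flt4 against capilEC (85.6 against 256 CPM), while Flt1 was level between aEC and capilEC (2793 and 2778 CPM).

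Capillary genes were lower in aEC. The 12-gene capillary list summed to 6306 CPM in aEC, against 12842 in capilEC and 5288 in vEC. All 12 were below 0 against capilEC, with a median of -1.98 log2 units, and 6 met the size rule: Slc38a5, Car4, Slc16a1, Apcdd1, Ivns1abp and Hmcn1. Over all measured genes, 50.3% were above 0 and 0.0955% were lower in aEC by that rule. Car4, a membrane carbonic anhydrase, stood at 205 CPM in aEC and 1646 in capilEC. Its aEC plate values were 498, 134, 149 and 272 CPM, all below the lowest capilEC plate at 1511. Slc16a1, a lactate and ketone body transporter, was 172 CPM in aEC and 1048 in capilEC, with 158 to 229 CPM by plate against 816 to 1211. Mfsd2a, the lysophospholipid transporter that limits transcytosis, was 362 CPM in aEC, against 851 in capilEC and 55.7 in vEC, so that aEC lay between these labels. On plate s169s it was higher in aEC (598 CPM) than in capilEC (510).

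Barrier transporters were lower in aEC than in capilEC for 17 of 20 genes, with a median of -1.07 log2 units (-0.43 in the highest plate). Over all measured genes, 50.3% were above 0. Their summed level was 15643 CPM in aEC, against 22967 in capilEC and 16013 in vEC. The 3 genes above 0 were the glucose transporter Slc2a1 (3860 CPM in aEC and 3573 in capilEC), the taurine transporter Slc6a6 (2325 and 1629) and the efflux pump Abcc4 (601 and 576). On plates s482s and s483s, which hold most aEC cells, Slc2a1 was lower in aEC (3968 against 4017 and 3416 against 3824 CPM), as was Abcc4 (518 against 680 and 603 against 690). Slc6a6 was higher in aEC on 3 plates and lower on s169s (1163 against 1178 CPM). Lower by the size rule were Slc38a5 and Slc16a1. Both belong to the capillary list too, as do Slc22a8 and Tfrc, so the 2 lists are not separate results for these genes. Others were lower without meeting it: the amino acid transporters Slc7a5 (138 CPM against 520) and Slc7a1 (216 against 693), the organic anion transporter Slc22a8 (378 against 1435) and the transferrin receptor Tfrc (235 against 778). Tfrc was at or above 100 CPM in 30.2% of aEC cells and 61.2% of capilEC cells. Abcb1a, another efflux pump, was nearly level in the sums (810 and 875 CPM). By plate it was 1180, 704, 687 and 962 CPM in aEC against 645, 879, 879 and 1046 in capilEC.

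**Figure D5:**
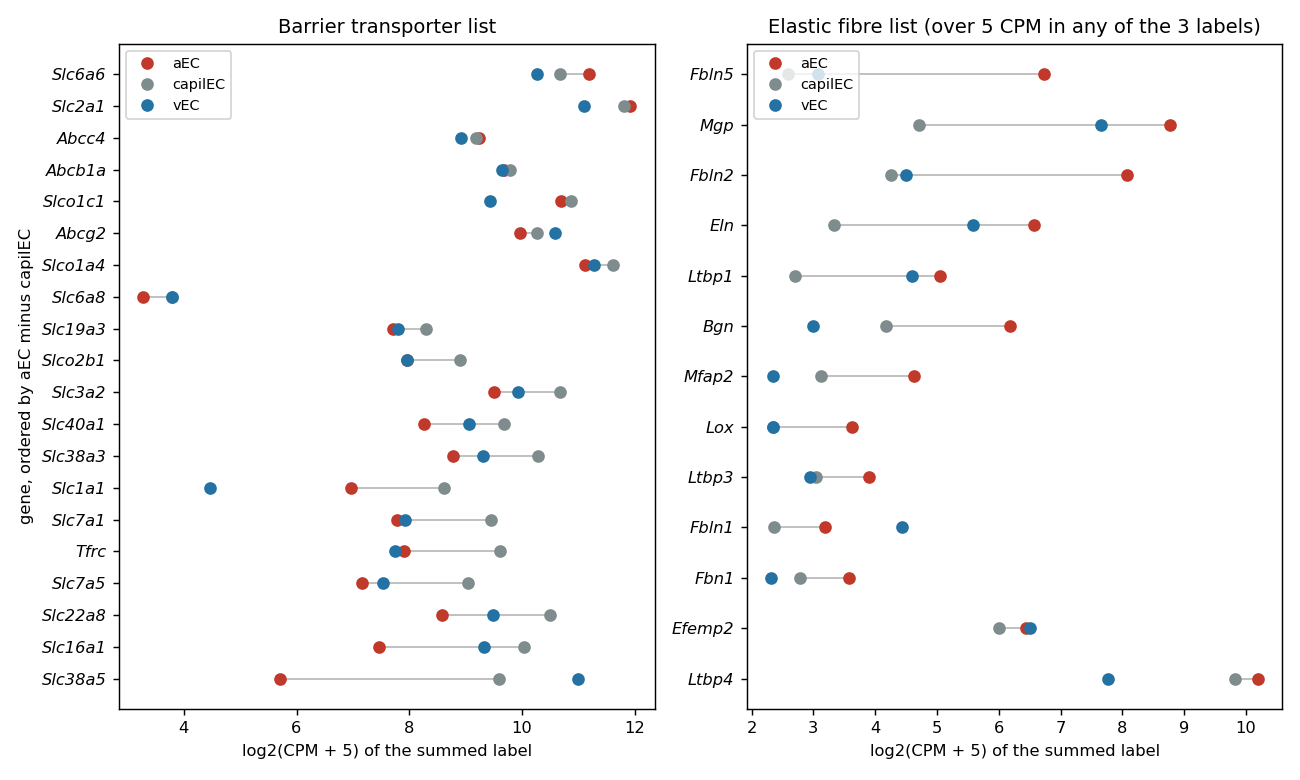
Levels of the barrier transporter list and of the elastic fibre genes over 5 CPM in any of the 3 labels, as log2(CPM + 5), in aEC, capilEC and vEC; grey lines join aEC and capilEC. For 17 of 20 transporters aEC lies to the left of capilEC, and Slc2a1 and Slc6a6 lie to the right; several of the elastic fibre genes shown are under 5 CPM in capilEC, and their place to the right in aEC is set in part by the minimum.

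Junction and vesicle genes differed little from capilEC. Claudin-5, Cldn5, stood at 3868 CPM in aEC, against 4425 in capilEC and 3269 in vEC, and every aEC cell held at least 148 CPM. The tight junction list had a median of -0.19 log2 units against capilEC, and 0 of 11 measured genes met the size rule. Caveolin-1, Cav1, was 1167, 941 and 1604 CPM in the 3 labels, with a list median of 0.31 against capilEC and 0.00 against vEC over 9 genes of caveolae and vesicles. Prkcdbp (Cavin3) was 331 CPM in aEC, against 177 in capilEC and 456 in vEC.

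Venous genes were lower in aEC than in vEC, with a list sum of 730 CPM in aEC, against 906 in capilEC and 7835 in vEC. Of 16 measured genes of the venous list, 5 were over 5 CPM in vEC alone, which sets their direction, and 11 were over it in both labels. The median was -3.62 log2 units over the 16 and -3.40 over the 11, and 11 of the 16 met the size rule. Over all measured genes, 0.452% were lower in aEC than in vEC by that rule. Lcn2, lipocalin-2, stood at 0.926 CPM in aEC against 810 in vEC, Lrg1, a TGF-beta modulator, at 0.319 against 591, and the chemokine receptor Ackr1 at 0.607 against 481. Ackr1 did not meet the rule since it was read in under 50% of vEC cells. Vwf, von Willebrand factor, was present in aEC at 203 CPM, close to capilEC at 237, against 1329 in vEC. The list includes genes of activated endothelium, such as Vcam1 (136, 62.0 and 956 CPM in aEC, capilEC and vEC) and Ptgs2 (7.67, 7.50 and 302). Among genes outside the lists, Rad54b (291 and 2.41 CPM in aEC and vEC) and the serine protease Htra1 (153 and 1.42 CPM) were among the largest differences from vEC, and stood at 128 and 132 CPM in capilEC. Glul, glutamine synthetase, was graded: 1860 CPM in aEC, against 655 in capilEC and 363 in vEC, with aEC plates of 1030 to 2063 CPM against 384 to 794 in capilEC.

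CP-EC cells, labelled endothelial with a prefix the labels do not spell out, differed from aEC in many genes: 246 of 11549 genes were higher in aEC (2.13%) and 74 lower (0.641%). The median of all measured genes was itself 0.40 log2 units here, and it was 0.17 to 1.09 under other scalings and cell sets. Beside it, the barrier transporters had a median of 2.31, with 11 of 20 meeting the rule. The factors Foxq1 (386 CPM in aEC and 3.02 in CP-EC) and Lef1 (265 and 6.04) were far higher in aEC. Plvap, the diaphragm protein of fenestrated vessels, stood at 6.26 CPM in aEC and 2223 in CP-EC, and 1 cell held 92.3% of the aEC reads. Ednrb, the endothelin B receptor, was 1.21 against 799 CPM, and Esm1 0.319 against 990. The only plate with at least 5 cells of both labels was s483s, and 246 of 246 higher genes and 71 of 74 lower genes had the same direction there. That plate holds 10 of the 17 CP-EC cells and is part of the pooled values, so the shared direction is not a separate check. Without it, 469 genes were higher and 174 lower in aEC.

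Immediate early genes, which answer to stimulation and also to tissue dissociation, were higher in aEC than in capilEC. Of 17 measured genes, 16 were above 0 with a median of 0.79 log2 units, and Nr4a1 and Egr1 met the size rule. Over all measured genes, 50.3% were above 0 and 0.148% were higher in aEC by that rule. The list summed to 6697 CPM in aEC, against 3311 in capilEC and 7301 in vEC, and the ratio of aEC to capilEC was 1.97 to 2.51 in the 4 plates. Egr1 stood at 562 CPM in aEC, against 111 in capilEC and 458 in vEC, and Fos at 1077, 386 and 943. Cells differed widely: the sum ranged from 66.7 to 36044 CPM in aEC, with a median of 3670, and Fos was at or above 100 CPM in 67 aEC cells. The median sum was 7096 CPM in aEC cells without a label marker, 3670 with 1 or 2, and 3086 with 3 to 5, with overlapping ranges. In capilEC cells it was 2882 CPM with 3 to 5 markers and 1990 with 0 to 2. The part of immediate early genes in the other differences between aEC and capilEC was not tested.

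Actin and contractility genes differed little from capilEC: 10 of 15 were above 0, against 50.3% of all measured genes, and the median was 0.15 log2 units and 0.0068 without the top cell of each gene. Mylk, myosin light chain kinase, met the size rule at 114 CPM in aEC against 15.9 in capilEC and 41.6 in vEC, and was 2477 CPM in aSMC. Without the 5 cells with markers of another class it was 101 CPM in aEC and 16.0 in capilEC. Acta2 was 53.6 CPM in aEC, 41.6 in capilEC and 6440 in aSMC, and with such cells left out it was lower in aEC (35.3) than in capilEC (40.3). Myh11 was 15.3 CPM in aEC with all cells and 1.31 without those 5. Among cell cycle genes, the proliferation markers Mki67 and Top2a had 0 reads in aEC, which allows up to 0.0958 CPM. The inhibitor Cdkn1c was 387 CPM in aEC, against 141 in capilEC and 43.9 in vEC. On plate s169s Cdkn1c was lower in aEC (41.6 CPM) than in capilEC (130).

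The arterial labels of endothelium and smooth muscle were compared by the same rule. Of the 9 genes higher in aEC than in capilEC and vEC, and the 55 higher in aSMC than in PC and vSMC (0.426% of 12921), 0 were in both (0.0% of 14248). Of the 5 and 56 genes lower (0.433% for aSMC), 1 was in both (0.00702% of 14248), which is 20% and 1.79% of the lists: Rnase4. Without the minimum share of cells, 4 genes were higher in both. With lists this short, little can be read from the overlap.

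The minimum share of cells decides how many genes are counted. Without it, 47 genes were higher in aEC than in both capilEC and vEC, 38 of them read in fewer than 50% of aEC cells. Of these 38, 12 were read in 30% or more of the cells, 23 in 10% to 30% and 3 in fewer. The top cell held a median of 17.1% of the reads, and more than 50% for 1 gene, Nr4a2. By their levels in aEC, capilEC and vEC, examples chosen after their values were seen are the lipoxygenase Alox12 (266, 27.1 and 16.4 CPM), the estrogen receptor Gper1 (170, 10.1 and 1.20), the cadherin Cdh13 (144, 9.89 and 0.213) and the insulin-like growth factor binding protein Igfbp3 (122, 4.23 and 0.213). Alox12 reached 100 CPM in 38 aEC cells and the homeobox gene Msx1 in 24, while Cytl1 did so in 5.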

How the data were processed

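The deposited table held raw read counts of 46517 gene rows in 1235 cells, and a second deposited table gave each cell's label. Per the submitters' processing notes, the authors used SAMtools 1.16.1, featureCounts and Subread 1.4.6-p5, and named the builds GRCm38 and GRCm39 without a role. The sources used here name no aligner. The shallowest deposited cell held 100021 reads. Gene symbols are printed as in the table (Ppap2a for Plpp1, Prkcdbp for Cavin3).

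Counts were summed per label, scaled to CPM, and compared on log2(CPM + 5), which understates differences of low genes. Without molecular identifiers, reads from PCR copies cannot be told from reads of separate molecules. Whether counting used strand is not given, so overlapping and antisense genes may share reads. With 1 sample per label no test was run, and no difference has a replicate check. No doublet caller was run; an alternative left out cells with over 10% of another class's typical marker level. No cell name and no cell's counts occurred more than once (0 identical cells).

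Named genes were the label markers, list members, and for each comparison and direction the 12 largest differences past the size rule whose sign was shared by all plates holding at least 5 cells of both labels, leaving out predicted, ribosomal protein and mitochondrial genes. The members, markers and lists were chosen with earlier results of these data known. Alternatives covered scaling (edgeR 4.0.16 TMM and DESeq2 1.42.0 size factors), cell weights, pseudocount, minima, thinning, plates and single cells. Python 3.11.15, numpy 2.4.6, scipy 1.17.1 and R 4.3.3 were used.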

Additional observations from a re-analysis of the deposited data

How the results depend on the processing

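Each label is 1 sample, so stability here means that a value moved little between settings. Of the counts by the size rule, 166 values stayed within 1.5 times the main one and 26 did not. Of the list medians 775 values stayed, 24 moved and 1 turned its sign. Of 640 single-gene differences 10027 values stayed, 213 moved and 0 changed sign past the size rule. The cause was not tested for any of them. No paired analysis was possible because each label is 1 sample and the submitters number no replicates. Values within each plate, which the labels share, stand in for it in the text and carry no test.

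Without a minimum share of cells, aEC was higher than capilEC in 65 genes and lower in 23, higher than vEC in 183 and lower in 148, and higher than CP-EC in 857 and lower in 490. It was then above both capilEC and vEC in 47 genes, below both in 9, above every other label in 9 and below the 3 other endothelial labels in 1, and 4 genes were shared with aSMC. With the share taken after thinning, 38 genes were higher than in vEC and 132 than in CP-EC. Among cells with at least 150000 reads, 148 genes were lower than in CP-EC, 14 above both capilEC and vEC and 1 shared with aSMC. With a pseudocount of 20 CPM, 11 genes were higher than in capilEC and 3 above every other label. Without plate s169s, 3 were above every other label. Without plate s483s, 469 were higher and 174 lower than in CP-EC, and 4 were below the 3 other endothelial labels. With the top cell of every gene removed, 469 were higher than in CP-EC and 1 was shared with aSMC, and 1 was shared under TMM factors and without plate s480s. Without thinning, 69.8% of aEC cells had a read of Gkn3 and 72.4% of Mgp.

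For list medians, the arterial list against capilEC was 2.77 with a pseudocount of 1 and 1.79 with 20, and against vEC 2.26 with 20 and 3.59 without plate s483s. The capillary list against vEC was 0.26 under TMM factors, 0.41 with equal weight per cell and -0.16 among cells with at least 150000 reads, so no direction can be read from it. Vasoactive enzymes against vEC were 0.34 under TMM factors, 0.70 without plate s482s and 0.33 without s483s, and -0.058 without s169s, the 1 value that reversed. Against capilEC they were -0.23 without s169s and 0.16 without s483s. Vasoactive receptors were 1.95 against capilEC and 1.30 against vEC with a pseudocount of 1, and against vEC 0.38 with 20 and 1.12 without s483s. Actin genes were 0.54 against vEC under TMM factors, and against capilEC 0.24 without s483s and 0.0068 without the largest cell of each gene. In that last setting, the venous list against capilEC was -1.03 and the Notch receptors against vEC were 2.27. Growth factor receptors against vEC were 1.02 without s483s, and immediate early genes against vEC 0.27 with equal weight per cell and 0.24 without s169s. Plate s169s, with 7 aEC cells, limits what can be read from values by plate.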
